A study of Mus musculus with 2 samples.

Results

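Scx, Mkx, Egr1, Egr2 and Six2 are 5 genes for transcription factors with known roles in tendon. They were picked by symbol from the 32285 genes of the deposited matrices, and all 5 had UMIs in both libraries. UMIs are unique molecular identifiers, each counted as a captured RNA molecule. The cells came from the injured tendon area of mice 14 days after surgery, profiled by droplet single-cell RNA sequencing (10x Genomics). The F592A library came from TrkA F592A mice, whose sample title names INMPP1, and the WT library from TrkA WT mice, titled as the control. Mice of both groups were 12 weeks old, and 3 mice per genotype were pooled into 1 library. TrkA is the receptor kinase for nerve growth factor, and the F592A change makes the kinase open to block by a bulky inhibitor. The labels do not say whether WT mice got the inhibitor, nor at what dose and times it was given, so an effect of the mutation, of the inhibitor and of blocked TrkA cannot be told apart. With 1 library per genotype there is no replicate check, no test was run, and every interval is a 95% interval for counting error only.

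Scx (Scleraxis) is a basic helix-loop-helix factor that marks tendon progenitors and tenocytes. It binds DNA with E proteins, is held back by Id proteins, and is switched on by TGF-beta signalling. Mkx (Mohawk) is a homeodomain factor needed for thick collagen fibrils in tendon, and in mice it represses muscle genes through corepressors. Egr1 and Egr2 are zinc finger factors of the immediate early class, which cells induce within minutes of growth factor, strain or stress signals. Both are also used in tendon development for collagen genes, and Egr2 is in addition a master factor of myelinating Schwann cells. Six2 is a homeodomain factor that works with Eya proteins, best known from nephron progenitors and also found in limb tendons.

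On the GRCm38 build with GENCODE M21 annotation, Scx lies at chr15:76457452-76459458 on the plus strand. Its main transcript has 2 exons, and the whole gene sits inside intron 3 of Bop1, a ribosome assembly gene read from the other strand, with no overlap of exons. The sources used here do not say how counting handled strand. Bop1 had 24.6 CPM (the UMIs of a gene scaled to the total of its cell group) in F592A and 26.2 CPM in WT stromal cells, and 16.6 and 17.1 CPM in F592A and WT macrophages, and its range over cell groups was far narrower than that of Scx. Egr2 lies at chr10:67535475-67542188 on the plus strand and Six2 at chr17:85684277-85688274 on the minus strand. Of the 5 genes, 2 matched a promoter window in the RefSeq table used here (GRCm38.p6), Egr2 and Six2.

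The promoters of 3 genes are shown because Egr2 was found more often in cells with Egr1, and because Btg2 and Nr4a1 were the genes whose levels across stromal cell groups were most like those of Egr1. Each stretch is the 250 bases before the start of transcription, from RefSeq. Capitals mark a CArG box, the site of serum response factor, in Egr2, and the EGR site GCGNGGGCG, on either strand, in Btg2 and Nr4a1. The windows are chr10:67537619-67537868 on the plus strand for Egr2, chr1:134079156-134079405 on the minus strand for Btg2 and chr15:101266596-101266845 on the plus strand for Nr4a1.
Egr2: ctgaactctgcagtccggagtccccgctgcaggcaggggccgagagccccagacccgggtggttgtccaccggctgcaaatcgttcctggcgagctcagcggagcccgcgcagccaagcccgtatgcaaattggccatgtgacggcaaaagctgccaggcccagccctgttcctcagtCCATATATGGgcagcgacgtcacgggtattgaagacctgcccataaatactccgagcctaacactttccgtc
Btg2: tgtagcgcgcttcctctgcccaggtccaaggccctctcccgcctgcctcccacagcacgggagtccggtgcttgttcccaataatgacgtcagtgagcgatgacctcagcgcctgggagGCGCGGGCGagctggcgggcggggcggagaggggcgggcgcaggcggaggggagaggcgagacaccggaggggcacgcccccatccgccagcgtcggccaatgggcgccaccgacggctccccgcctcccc
Nr4a1: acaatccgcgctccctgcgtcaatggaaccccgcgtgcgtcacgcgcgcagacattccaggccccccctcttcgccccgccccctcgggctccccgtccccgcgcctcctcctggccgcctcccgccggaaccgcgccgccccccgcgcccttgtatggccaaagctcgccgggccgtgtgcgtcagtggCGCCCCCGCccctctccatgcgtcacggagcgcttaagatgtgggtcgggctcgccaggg
The CArG box of Egr2 begins 72 bases before the start. A CArG box was found in 1.62% of 27025 genes with such windows, and an EGR site in 5.33%. Of the 27 immediate early genes and EGR partners listed for this work, 23 had a window, and 11 of them (47.8%) held an EGR site, among them Btg2, Nr4a1, Klf2, Klf4 and Nab1. The Jun window, whose gene came next in likeness to Egr1, held none, and neither did the Egr2 windows. A match is a match of letters only, and GC-rich promoters share base composition.

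Cells were sorted into groups by marker genes, not by clusters. A cell went to the lineage whose marker list scored highest, and stromal cells were then put into subsets where they held at least 2 UMIs of both of a pair of genes. Subsets are named by that pair and may overlap. After filtering there were 8444 F592A and 11257 WT cells, with 170375806 and 205440446 UMIs and a median of 17886.5 and 15870 UMIs per cell. Of these, 4786 F592A and 6677 WT cells were stromal, 1522 and 2329 were macrophages, and 470 and 565 went to no lineage. All 8 stromal markers were detected in stromal cells, where they summed to 35096 and 32966 CPM, and the 8 macrophage markers summed to 35.0 and 70.7 CPM there. The libraries shared 764 barcodes, 96 of them among the cells kept.

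Scx and Mkx were found in stromal cells and fitted the label of tendon factors, whereas Egr1 was found in each of the 8 lineages compared and Egr2 was highest in macrophages. Six2 was a low gene of stromal and mural cells. The following paragraphs take each gene by lineage and stromal subset, with its level in CPM and the share of cells with a UMI after each cell was thinned to 2000 UMIs.

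**Figure D1:**
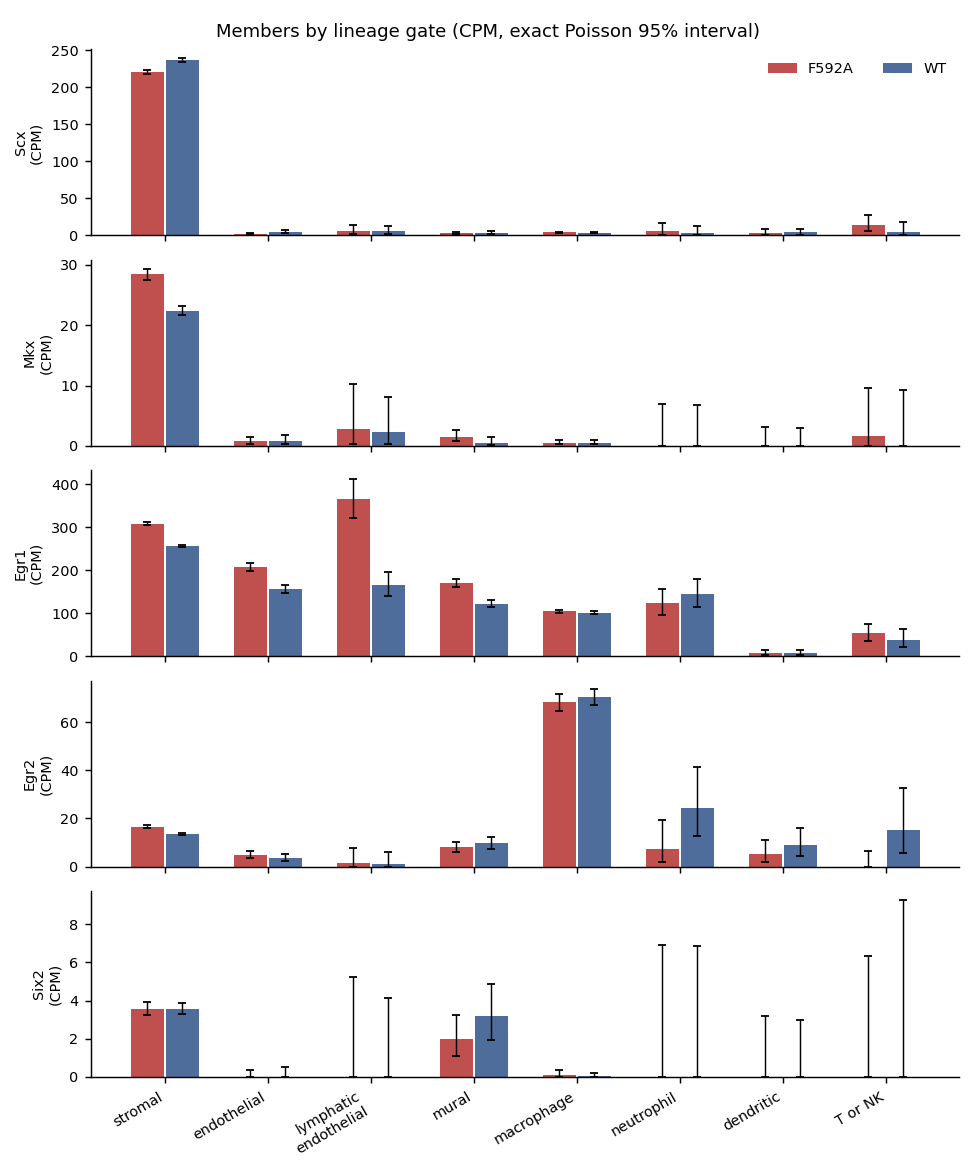
Level of each gene (CPM, linear axis from 0) in 8 lineages; bars are 1 library each, F592A left of WT, and error bars are exact Poisson 95% intervals. Scx and Mkx stand high in stromal cells, Egr1 in most lineages, and Egr2 in macrophages at 68.2 CPM in F592A and 70.3 CPM in WT.

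Scx, the tendon progenitor factor, was at 220.3 CPM in F592A stromal cells (95% interval 218 to 223) and at 237 CPM in WT stromal cells (234 to 239). In the other 7 lineages it lay between 2.41 and 13.7 CPM, the highest of these from 8 UMIs in F592A T or NK cells. After thinning, 23.6% of F592A and 25.8% of WT stromal cells held a Scx UMI (unthinned 57.1% and 60.7%, at a median depth of 24390 and 22167 UMIs). Macrophages, which should lack Scx, gave 0.74% and 0.92% (unthinned 4.27% and 4.04%, at 13436.5 and 10434 UMIs), which sets the background. Their Scx level of 4.08 CPM in F592A and 3.73 CPM in WT was near the 3.18 and 4.23 CPM that stromal RNA would give if the stromal markers in macrophages all came from that source. The same estimate fitted less well elsewhere. It was 11.3 and 15.1 CPM in mural cells, against 3.17 and 3.96 CPM found. In T or NK cells it was 6.43 and 6.54 CPM, against 13.7 and 5.03 CPM, and in endothelial cells 3.97 and 5.79 CPM, against 2.41 and 4.89 CPM. The source of Scx in these lineages was not tested.

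Among the 8 stromal subsets with at least 50 cells in each library, to which the orders below are limited, Scx was highest in Tnmd Kera tenocytes, at 373 CPM in F592A and 422 CPM in WT. It was then at 291 and 290.3 CPM in Angptl7 Prg4 surface cells, at 228 and 275 CPM in Acan Rbp4 fibrochondrocytes, and at 237 and 255 CPM in Ptn Mdk fibroblasts. Cycling stromal cells held 239 CPM in F592A and 202 CPM in WT, and Cd55 Prss23 fibroblasts held 93.5 and 83.4 CPM. The lowest of these 8 was the Pi16 Dpp4 adventitial cells, with 57.0 CPM in F592A and 23.9 CPM in WT. Stromal cells of no subset lay between, at 110.4 and 134 CPM. In F592A the intervals of fibrochondrocytes, Ptn Mdk fibroblasts and cycling cells adjoined or overlapped, so their order was not resolved. In WT the surface cells stood above the fibrochondrocytes and these above the Ptn Mdk fibroblasts, as judged by counting error alone. These subsets share cells, and the spread between cells is not part of the intervals.

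Single tenocytes differed widely in Scx. The median F592A tenocyte held 7 UMIs, the top 10% held 28 or more, and the highest cell held 84, against 7, 27 and 127 UMIs in WT. After thinning, 43.5% of F592A and 44.6% of WT tenocytes were positive, against 6.72% and 2.06% of adventitial cells. The adventitial shares rested on 9 F592A and 4 WT cells with overlapping intervals (3.12 to 12.4 and 0.56 to 5.19), and at 5000 UMIs they were 8.96% and 8.25%. Acta2 Cnn1 cells, which share genes with myofibroblasts, had more Scx than the tenocytes. They held 609 CPM in 24 F592A cells (561 to 659.7) and 675 CPM in 104 WT cells (649 to 702), and are left out of the comparisons below since F592A had under 50 of them.

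Mkx, the fibril-growth factor, was at 28.4 CPM in F592A stromal cells (27.5 to 29.4) and at 22.4 CPM in WT stromal cells (21.7 to 23.2). It was at most 2.84 CPM in the other 7 lineages, and no UMI was found in neutrophils or dendritic cells. The thinned shares were 4.82% of F592A and 4.42% of WT stromal cells, against 0.20% and 0.22% of macrophages. Unthinned, they were 34.2% and 27.0% of stromal cells.

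Of the 8 subsets, Tnmd Kera tenocytes had the most Mkx, with 52.0 CPM in F592A and 49.6 CPM in WT, followed by Angptl7 Prg4 surface cells with 48.8 and 37.8 CPM. The F592A intervals of these subsets overlapped (50 to 54.1 and 45.7 to 52.2), and the WT intervals did not. Ptn Mdk fibroblasts held 28.5 and 21.8 CPM, cycling cells 26.8 and 18.6 CPM, and fibrochondrocytes 19.7 and 17.2 CPM. Adventitial cells were again lowest of the 8, with 7.43 CPM in F592A and 3.78 CPM in WT. Between surface cells and fibrochondrocytes Scx and Mkx differed unequally. In WT these subsets held 290.3 and 275 CPM of Scx and 37.8 and 17.2 CPM of Mkx.

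Egr1 was at 309 CPM in F592A stromal cells and at 256 CPM in WT stromal cells. It was also at 207 and 155 CPM in endothelial cells, at 365 and 166 CPM in lymphatic endothelial cells, and at 169.5 and 123 CPM in mural cells, which wrap vessels and contract. Macrophages held 104 CPM in F592A and 102 CPM in WT, and neutrophils 123 and 145 CPM. Of the 8 lineages dendritic cells had least, with 7.75 and 7.25 CPM from 9 UMIs in each library. After thinning, 36.1% of F592A and 32.7% of WT stromal cells were positive, against 0 of 82 F592A dendritic cells, which allows a share of up to 3.66%, and 1.72% of WT dendritic cells.

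Across the same 8 subsets Egr1 varied less than Scx. It ran from 187 CPM in cycling cells to 359 CPM in cells of no subset in F592A, and from 197 to 282 CPM in WT, with cycling cells lowest and Ptn Mdk fibroblasts highest in WT. Outside these 8, Gdf10 Hmcn2 fibroblasts held 522 CPM in 112 F592A cells and 392 CPM in 17 WT cells. Tenocytes held 279.7 and 258 CPM, fibrochondrocytes 264 and 268 CPM, and adventitial cells 275 and 235 CPM. Adventitial cells were thus near the tenocytes in Egr1 and far below them in Scx. All cells went through the same warm enzyme digestion per the labels' protocols, and its part in the Egr1 and Egr2 levels was not tested.

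Egr2 was highest in macrophages, at 68.2 CPM in F592A (64.7 to 71.9) and 70.3 CPM in WT (67.1 to 73.6). After thinning, 11.7% of F592A and 11.4% of WT macrophages held an Egr2 UMI, against 2.92% and 2.65% of stromal cells and 0.50% and 0.76% of endothelial cells. Stromal cells held 16.6 and 13.5 CPM. If all of that had come from macrophage RNA in the ratio of the macrophage markers, it would have been 0.22 and 0.41 CPM. Mural cells held 8.06 and 9.66 CPM, endothelial cells 4.81 and 3.64 CPM, and neutrophils 7.48 and 24.2 CPM, the neutrophil values resting on 4 and 13 UMIs.

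Of the 8 stromal subsets Egr2 was highest in Ptn Mdk fibroblasts, at 20.4 CPM in F592A and 16.4 CPM in WT. Cells of no subset held 18.6 and 13.5 CPM, fibrochondrocytes 17.9 and 14.6 CPM, and tenocytes 15.2 and 11.9 CPM. Surface cells held 12.0 and 7.72 CPM, and adventitial cells 4.51 and 6.77 CPM from 17 and 34 UMIs. In myelinating Schwann cells, where Egr2 is a known factor, only 13 F592A and 18 WT cells were found, and these held 5 and 3 Egr2 UMIs.

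Six2, the Eya partner, was at 3.55 CPM in F592A stromal cells (3.23 to 3.90) and at 3.57 CPM in WT stromal cells (3.28 to 3.88). Mural cells held 1.98 and 3.17 CPM from 15 and 20 UMIs, and macrophages held 2 UMIs in F592A and 1 in WT. No Six2 UMI was found in endothelial, lymphatic, neutrophil, dendritic, or T or NK cells. For endothelial cells, 3 UMIs of the total would have been 0.31 and 0.42 CPM. The thinned share was 0.63% of F592A and 0.81% of WT stromal cells (unthinned 6.71% and 6.48%), against 0 of 595 F592A and 0 of 525 WT endothelial cells, which allows up to 0.50% and 0.57%.

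Of the 8 stromal subsets Six2 was highest in tenocytes, with 6.35 CPM in F592A and 7.89 CPM in WT. Ptn Mdk fibroblasts held 4.31 and 4.45 CPM, and surface cells 3.10 and 3.02 CPM. Fibrochondrocytes held 0.85 and 1.50 CPM and Cd55 Prss23 fibroblasts 0.52 and 0.79 CPM. Adventitial cells held 5 UMIs in F592A and none in WT.

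**Figure D2:**
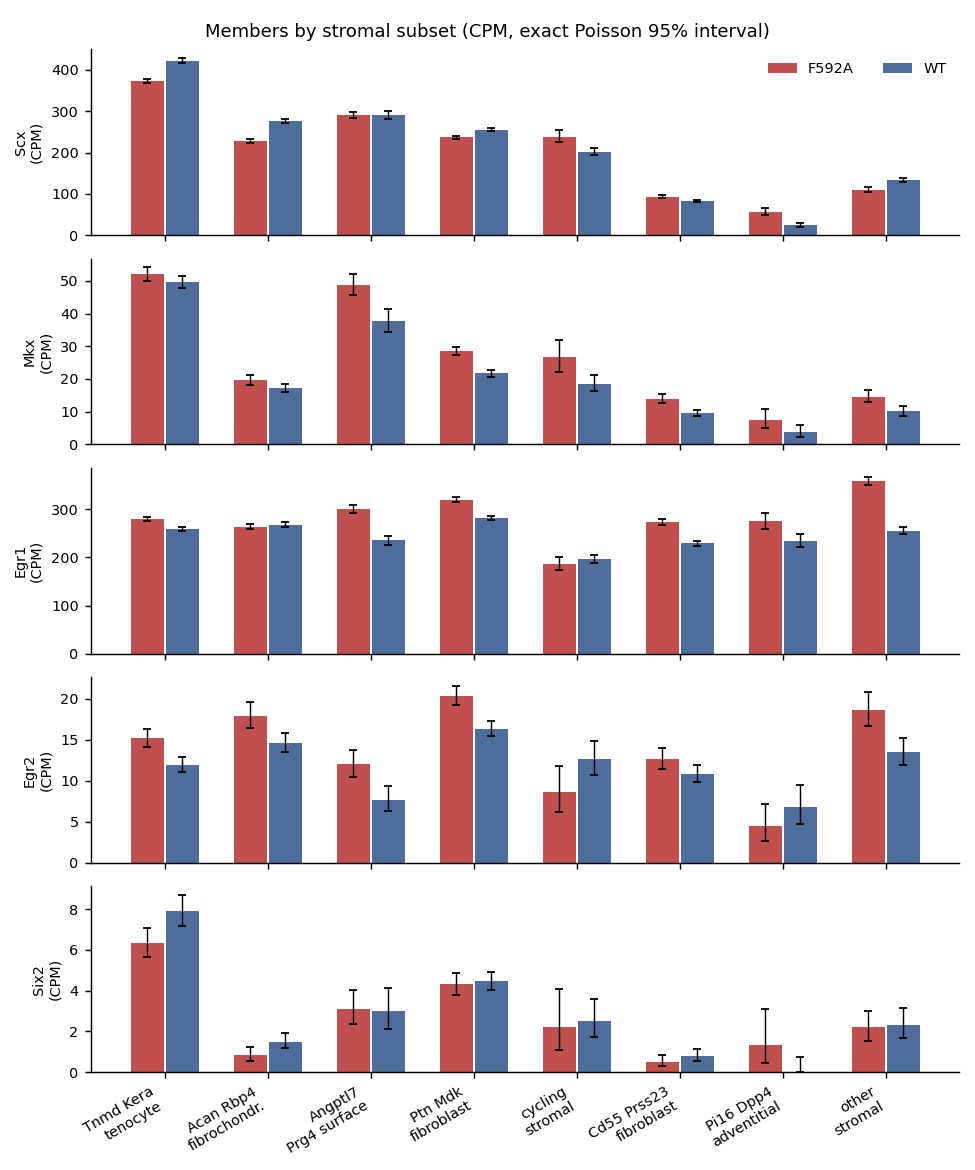
Level of each gene (CPM, linear axis from 0) in 8 stromal subsets, which may share cells; bars are 1 library each, F592A left of WT, and error bars are exact Poisson 95% intervals. Scx, Mkx and Six2 are highest in Tnmd Kera tenocytes and low in Pi16 Dpp4 adventitial cells, while Egr1 stays between 187 and 359 CPM in all 8.

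Between genotypes, most differences in the 5 genes were small. A gene counted as measured in a cell group with at least 100 UMIs over both libraries, and a difference counted as past the rule of size at 1.5-fold. Of 45 measured pairs of gene and cell group, 3 passed it. These were Scx in adventitial cells, Egr1 in lymphatic endothelial cells and Egr2 in surface cells, each higher in F592A. Of all measured genes, 14.2%, 25% and 6.42% passed it in those groups. Over all groups with a measured member that share ran from 5.15% to 26.9%. The interval lay above 0 in 27 pairs and below 0 in 7, and it included 0 in 11. Such intervals were not counted over all genes, so these counts do not set the 5 genes apart from other genes. The stromal subsets are parts of the stromal cells and share cells with each other, so these counts are not independent.

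In stromal cells none of the 5 genes passed 1.5-fold, where 8.19% of 13961 measured genes did. Mkx was higher in F592A by a log2 ratio of 0.34 (0.28 to 0.41), Egr2 by 0.30 (0.21 to 0.39) and Egr1 by 0.27 (0.25 to 0.29). Scx was lower in F592A by a log2 ratio of -0.10 (-0.12 to -0.08), and Six2 was at -0.01 (-0.19 to 0.17). The median over all measured genes was -0.08, so Scx stood at -0.03 and Mkx at 0.42 relative to it. With cells thinned to 2000 UMIs the Mkx ratio was 0.11 and that of Six2 -0.33.

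In Tnmd Kera tenocytes none of the 5 genes passed 1.5-fold either, where 5.67% of 12181 measured genes did. Scx was at -0.18 (-0.21 to -0.15) and Six2 at -0.31 (-0.53 to -0.10), both lower in F592A. Egr2 was at 0.34 (0.19 to 0.50) and Egr1 at 0.12 (0.08 to 0.15). The Mkx ratio of 0.07 had an interval that included 0 (-0.01 to 0.15), and it was -0.15 when each cell was thinned to 2000 UMIs, which weights cells equally. The Mkx difference seen over all stromal cells was therefore not past counting error inside this subset. Tenocytes were 34.2% of F592A and 29.9% of WT stromal cells, and with the stromal subsets weighted equally the stromal Scx ratio was -0.05.

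In the other subsets the ratio of Mkx was 0.20 in fibrochondrocytes (0.04 to 0.35), where 5.15% of measured genes passed 1.5-fold and none of 4 measured members did. It was 0.53 in Cd55 Prss23 fibroblasts (0.32 to 0.73), where 8.81% passed and none of 4 members did. In Ptn Mdk fibroblasts it was 0.39 (0.29 to 0.49), with 7.64% of genes past the fold and none of 5 members. In cycling cells it was 0.53 (0.20 to 0.85), with 8.75% of genes and none of 4 members past it. In surface cells it was 0.37 (0.21 to 0.53). In cells of no subset it was 0.52 (0.24 to 0.80), with 9.73% of genes and none of 4 members past it. Mkx was thus higher in F592A beyond counting error in 7 of its 8 measured groups, tenocytes being the exception. In none of them was it higher by 1.5-fold as scaled here. These groups share cells, the stromal cells holding all the others, and such intervals were not counted over all genes. With TMM and median-of-ratios factors Mkx passed 1.5-fold in Cd55 Prss23 fibroblasts (0.63 and 0.62) and in cells of no subset (0.63 under both). With cells thinned to 2000 UMIs the Mkx ratio was 0.67 in surface cells and 2.48 in cycling cells, given without intervals. Before thinning, cycling cells held 121 Mkx UMIs in F592A and 221 in WT, at a median depth of 47652 and 40660 UMIs. Thinning thus left few Mkx UMIs there, and the 2.48 does not count as a measured difference. Without cells holding 2 or more UMIs of Tnmd or Kera the Mkx ratio was 0.83 in fibrochondrocytes (0.13 to 1.50), from 30 F592A and 52 WT UMIs. In surface cells it was 0.67 (-0.32 to 1.71), from 24 and 15 UMIs, an interval that spans both directions. Both rest on fewer UMIs than the rule for a measured gene asks, so neither counts as past the fold. Thinned, the Mkx ratio was -0.20 in fibrochondrocytes and -0.12 in cells of no subset, so its direction in those groups changed under that setting.

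In adventitial cells both Scx and the tenocyte gene Tnmd were higher in F592A. Scx was at 57.0 CPM from 215 UMIs in 134 F592A cells and at 23.9 CPM from 120 UMIs in 194 WT cells, a log2 ratio of 1.26 (0.93 to 1.59). A Scx UMI was found in 26 cells of each library, and the highest single cell held 56 of the 215 UMIs in F592A and 13 of the 120 in WT. In this subset 14.2% of 7182 measured genes passed 1.5-fold, and the median over all measured genes was -0.14. Tnmd, the tenocyte membrane protein, was at 386 CPM in F592A and 119.6 CPM in WT adventitial cells, and 8.96% and 3.09% of the cells were also in the tenocyte subset. Without cells that held 2 or more UMIs of Tnmd or Kera, Scx was at 9.94 CPM from 26 UMIs in F592A and 9.19 CPM from 36 UMIs in WT. Its log2 ratio was then 0.11 (-0.67 to 0.88), so the difference was not seen among the cells left. Bop1, the host gene, was lower in F592A adventitial cells, at 14.6 CPM against 21.9 CPM in WT.

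The same removal lowered the Scx ratio in several other groups. In cells of no subset, Scx without the cells of 2 or more Tnmd or Kera UMIs was 34.4 CPM in F592A and 82.8 CPM in WT. Its log2 ratio was -1.27 (-1.45 to -1.09), against -0.28 with them. In Ptn Mdk fibroblasts it was 40.0 and 74.2 CPM, a ratio of -0.89 (-1.04 to -0.74), against -0.11 with them. In surface cells it was 34.3 and 56.8 CPM, a ratio of -0.73 (-1.08 to -0.38), against 0.00 with them. In Cd55 Prss23 fibroblasts it was -0.36, against 0.16 with them. In fibrochondrocytes it was -0.30 against -0.27 with them, within the counting error of the latter (-0.32 to -0.23). In cycling cells it was 0.24 with an interval that included 0 (-0.16 to 0.62), and 0.24 with them. This setting was chosen after the data were seen, and its cut was made on unthinned counts. F592A stromal cells were deeper, at a median of 24390 against 22167 UMIs, and held more Tnmd, at 1425 against 1184 CPM. The cut may thus have removed cells less fully from WT, and the part of this in the ratios was not tested. Cells with 2 or more UMIs of Tnmd or Kera numbered 3160 of 4786 in the F592A stroma and 4064 of 6677 in the WT stroma.

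**Figure D3:**
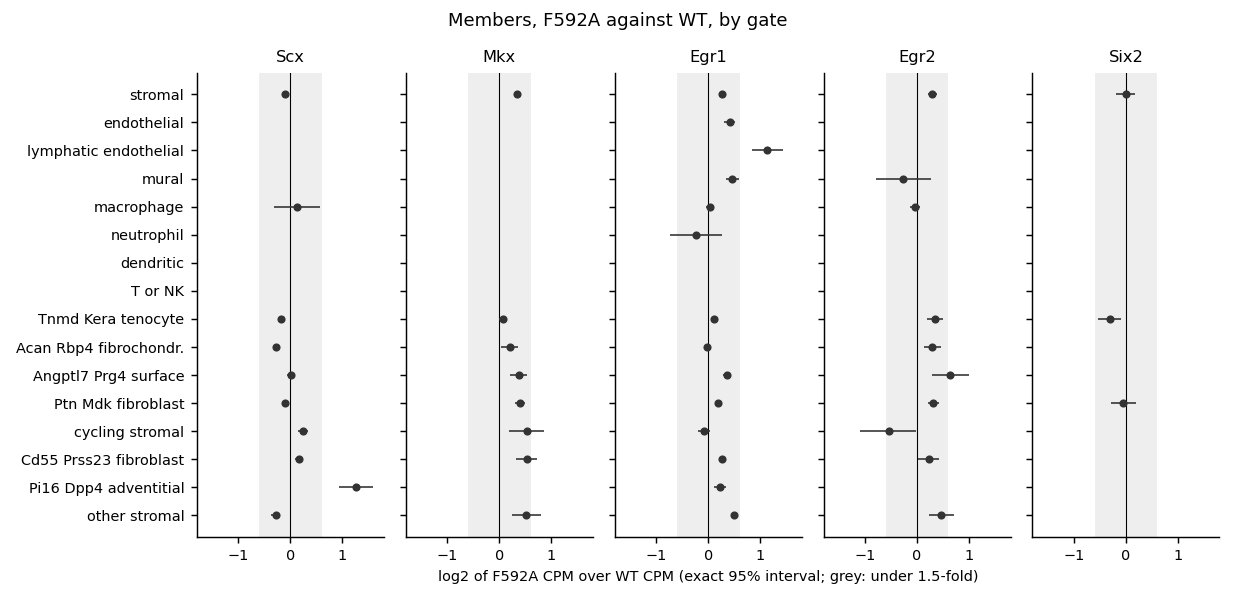
Log2 ratio of F592A over WT for each gene in each measured cell group, with exact 95% intervals for counting error; the grey band marks less than 1.5-fold. Only Scx in adventitial cells (1.26), Egr1 in lymphatic endothelial cells (1.14) and Egr2 in surface cells (0.64) lie outside it.

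Egr1 was higher in F592A in vessel cells, as in most stromal groups. In lymphatic endothelial cells it was at 365 CPM from 257 UMIs in 63 F592A cells and 166 CPM from 148 UMIs in 64 WT cells, a log2 ratio of 1.14 (0.84 to 1.44). In this lineage 25% of 2388 measured genes passed 1.5-fold, 124 upward and 472 downward, and the median over all of them was -0.17. Here 5 of 19 measured immediate early genes were past it upward and 1 downward. The thinned share of Egr1-positive cells was 45.0% in F592A (32.1 to 58.4) and 19.7% in WT (10.6 to 31.8). Neutrophil markers summed to 2023 CPM in F592A and 8.97 CPM in WT lymphatic cells, while Egr1 in neutrophils was at 123 and 145 CPM. In the same lymphatic cells the mural markers summed to 286 and 52.7 CPM and the stromal markers to 649 and 1438 CPM. The part of RNA from these other cells in the result was not tested.

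In endothelial cells Egr1 had a log2 ratio of 0.41 (0.31 to 0.52), where 11.1% of genes passed 1.5-fold, and in mural cells of 0.47 (0.34 to 0.60), where 12.6% did. In neutrophils it was -0.23 (-0.73 to 0.26), where 26.9% did. The immediate early list did not follow Egr1 in endothelial cells, where 1 of 26 measured genes passed 1.5-fold upward. Its median there was -0.11, against -0.09 for all measured genes. In mural cells 2 of 26 passed upward, and the median was 0.09 against -0.08. In macrophages neither Egr1 (0.03, -0.05 to 0.12) nor Egr2 (-0.04, -0.14 to 0.06) differed beyond counting error, and 5.67% of 9932 genes passed 1.5-fold. Among stromal groups Egr1 was highest over WT in cells of no subset, at 0.49 (0.44 to 0.55), and in surface cells, at 0.35 (0.29 to 0.42). It did not differ beyond counting error in fibrochondrocytes or cycling cells.

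Egr2 in surface cells was at 12.0 CPM from 221 UMIs in F592A and 7.72 CPM from 97 UMIs in WT, a log2 ratio of 0.64 (0.29 to 1.00), where 6.42% of 10098 measured genes passed 1.5-fold and 1 of 4 measured members did. Surface cells that were also tenocytes made up 67.9% of the F592A and 48.9% of the WT subset. Without cells holding 2 or more UMIs of Tnmd or Kera, 14 and 18 Egr2 UMIs were left, and the ratio was -0.37 (-1.49 to 0.72). With doublets kept it was 0.57, under 1.5-fold. In cycling cells Egr2 was lower in F592A, at -0.55 (-1.09 to -0.03) from 39 and 150 UMIs. In the other stromal subsets with a measured value the ratio lay between 0.22 and 0.46. Thinning turned it to -0.11 in Ptn Mdk fibroblasts and to 1.22 in cycling cells. The cycling value rests on few UMIs, since only 39 and 150 were there before thinning.

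Mkx was more frequent in stromal cells with Scx than in those without it. In stromal cells thinned to 5000 UMIs, 19.5% of F592A cells with a Scx UMI held Mkx, against 6.15% of cells without Scx. In WT the shares were 14.7% and 5.30%. Inside the tenocyte subset the gap was smaller, at 24.9% with and 17.4% without Scx in F592A and 22.2% and 16% in WT. Counting both genes, 7.57% of F592A stromal cells held both, 31.2% held Scx alone and 3.77% held Mkx alone, against 6.19%, 35.9% and 3.07% in WT. At this depth a cell without a UMI may still express the gene.

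Six2 was also found mostly in cells with Scx. It was seen in 3.85% of F592A stromal cells with Scx and 0.53% of those without, and in 3.19% and 0.89% in WT. Of the 84 F592A cells with Six2, 82.1% also held Scx (72.3 to 89.6), and of the 119 WT cells 72.3% did (63.3 to 80.1). Only 18 cells in each library held Scx, Mkx and Six2 together.

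Egr2 was more frequent in stromal cells with Egr1. It was in 9.26% of F592A stromal cells with Egr1 and 5.03% of those without, and in 7.56% and 4.27% in WT, the intervals not overlapping in either library. By Scx, Egr2 was in 6.92% of F592A cells with it and 7.60% without it, and in 5.61% and 6.22% in WT. Inside the tenocyte subset Egr2 was in 7.63% of F592A cells with Egr1 and 4.01% without. In WT tenocytes it was in 5.65% with and 4.78% without, with overlapping intervals (4.36 to 7.19 and 3.47 to 6.40). By Scx, it was in 6.41% of F592A tenocytes with and 5.26% without, and in 4.17% and 7.58% in WT, where the intervals did not overlap (3.16 to 5.38 and 5.64 to 9.93). Egr1 itself was in 53.9% of F592A stromal cells with Scx and 54.7% without, with overlapping intervals. In WT it was in 54.5% with and 49.0% without, and the intervals did not overlap (52.6 to 56.4 and 47.4 to 50.6). In macrophages of the F592A library, 31.2% of cells with Egr1 held Egr2, against 23.5% of those without, with intervals that overlapped slightly (25.9 to 36.8 and 21.1 to 26.1). In WT macrophages the shares were 32.8% and 25.3%, and the intervals did not overlap (28.6 to 37.2 and 23.2 to 27.5).

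**Figure D4:**
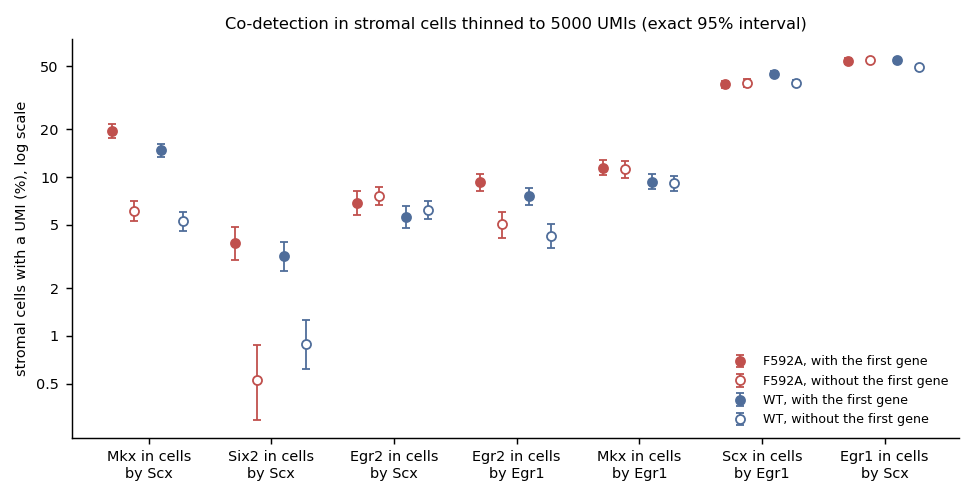
Share of stromal cells (percent, log axis, cells thinned to 5000 UMIs) that hold the second gene, among cells with (filled) and without (open) the first gene; F592A stands left of WT, and bars are exact 95% intervals. Mkx (19.5% against 6.15% in F592A) and Six2 are more frequent in cells with Scx, and Egr2 in cells with Egr1. Egr1 lies between 49.0% and 54.7% with and without Scx, with intervals that overlap in F592A and do not in WT.

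Stromal cells with Scx held more of the tendon matrix genes. Cells with and without a UMI also differ in subset, so these values describe both. Of 24 measured genes of the tendon matrix and differentiation list, 12 were at least 1.5-fold higher in cells with Scx in F592A and 12 in WT, against 6.59% and 4.10% of all measured genes. Tnmd was at 2400 CPM with and 621 CPM without Scx in F592A, and at 1969 and 555 CPM in WT. Fmod, a collagen-binding proteoglycan, was at 2284 and 697 CPM in F592A and at 1966 and 727 CPM in WT. Col14a1, a collagen gene of the same list, went the other way, at 138 CPM with and 562 CPM without Scx in F592A and at 152 and 468 CPM in WT. Cells with Mkx were higher in 8 of the 24 genes in each library, against 4.26% of all measured genes in F592A and 3.37% in WT. Cells with Six2 were higher in 9 in F592A and 10 in WT, though 12.5% and 8.73% of all genes were higher by that measure with few Six2 cells.

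Cells with Egr1 differed in other genes. No tendon matrix gene was 1.5-fold apart by Egr1 in either library, whereas 14 of 26 measured immediate early genes were higher in F592A and 13 in WT, against 1.27% and 0.91% of all genes. Fos was at 1664 CPM with and 390.2 CPM without Egr1 in F592A, and at 1340 and 381 CPM in WT. Zfp36, which speeds decay of cytokine mRNAs, was at 678 and 185 CPM in F592A and at 493 and 161 CPM in WT. Cells with Egr2 held more Egr3, at 38.9 and 22.3 CPM in F592A and 52.5 and 21.9 CPM in WT, while Fos differed little by Egr2 in WT, at 888 and 872 CPM. The median log2 ratio of the immediate early list was 0.35 by Egr2 in F592A and 0.40 in WT.

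Other limb factors also differed by member. Eya2, a partner of Six2, was at 54.8 CPM in F592A cells with Six2 and 13 CPM in those without, and at 28.6 and 9.63 CPM in WT, from 23 and 17 UMIs in the cells with Six2. Osr2, an odd-skipped factor of connective tissue, was at 4.76 and 20.7 CPM by Six2 in F592A and at 3.36 and 28.6 CPM in WT, from 2 UMIs in the cells with Six2 of each library. Osr1 was low in cells with Scx, at 6.58 CPM against 32 CPM without Scx in F592A and at 10.2 against 32.9 CPM in WT. Fosl1, an AP-1 subunit, was also lower with Scx, at 7.59 and 18.9 CPM in F592A and at 9.36 and 25.1 CPM in WT.

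**Figure D5:**
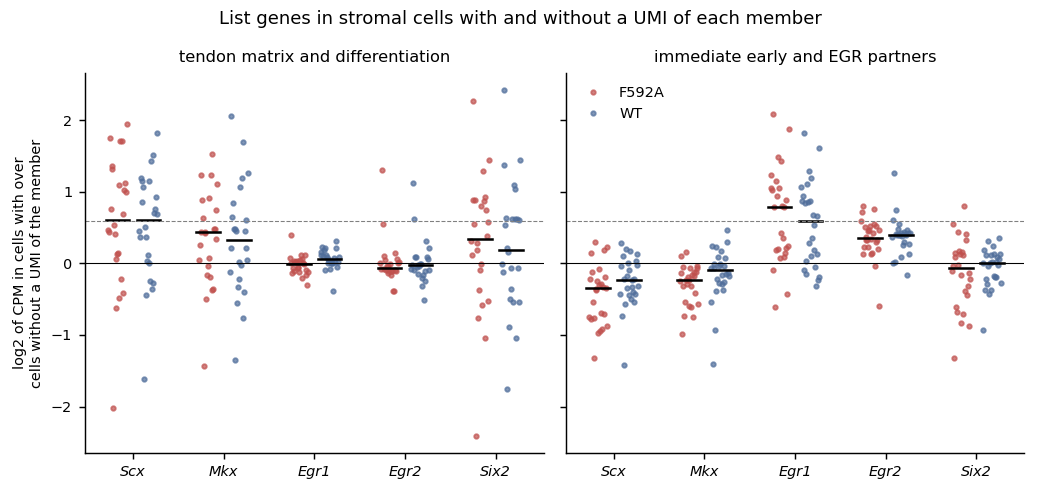
Log2 ratio of CPM in stromal cells with over cells without a UMI of each member (cells thinned to 5000 UMIs), 1 point per list gene, F592A left of WT, with black bars at the median and the dashed line at 1.5-fold. Tendon matrix genes run high with Scx, Mkx and Six2 and stay near 0 with Egr1, and the immediate early genes run high with Egr1 and low with Scx.

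Levels over the 16 cell groups of both libraries (32 sums) were used to find the genes most like each member, by Pearson correlation of log2(CPM + 1). The sums share libraries and, among subsets, cells, so the values only describe. Scx was most like Clec11a (r = 0.98), a growth factor for bone cells, Fmod and Col8a2. Mkx was most like Gsc (0.97), a homeobox gene, Uts2r and Scube2, and its correlation with Scx was 0.97. Six2 was most like Nkd2 (0.88), a Wnt modulator, Kctd1 and Mettl24. Egr1 was most like Dcun1d3 (0.92), Ulk2 and Wipi1, and Egr2 was most like Cebpa (0.83), a myeloid factor, Ctsb and Spp1.

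Over the stromal subsets alone (16 sums) the order changed. Mkx was most like Pitx1 (0.97), a hindlimb homeobox factor, and Egr1 was most like Btg2 (0.94), Nr4a1 (0.94) and Jun (0.91), immediate early genes. Scx was most like Srpx2 (0.98), and Six2 most like Znhit6 (0.90). Egr2, without the macrophages, was most like Ephb2 (0.98), a guidance receptor, Bdnf (0.92), a neurotrophin, and Plk3 (0.90). Among the members, Mkx with Scx stayed at 0.93, Egr1 was at 0.05 with Scx and 0.47 with Egr2, and Egr2 was at 0.50 with Scx.

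Between genotypes, the lists around the 5 genes moved little in stromal cells. All 25 tendon matrix genes were measured and none passed 1.5-fold, with a median log2 ratio of 0.11 against -0.08 for all measured genes. Cilp was highest over WT, at 569 CPM in F592A and 388 CPM in WT (0.55), followed by Chodl (0.48), and Thbs2 was lowest, at 964 and 1237 CPM (-0.36), with Aspn at -0.27. In tenocytes the median was 0.05 and again none of 25 passed, with Ogn at 0.33 and Comp at -0.28.

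Of 26 measured immediate early genes and EGR partners none passed 1.5-fold in stromal cells or in tenocytes, with medians of 0.03 and -0.03. Myc was highest in stromal cells, at 62.2 CPM in F592A and 46.8 CPM in WT (0.41), and Ier2 lowest, at 138 and 184 CPM (-0.42). In tenocytes Klf2, a flow and stress factor, was at 502 and 736 CPM (-0.55), and Atf3 was at 195 and 152 CPM (0.36). The list was thus split in direction, whereas Egr1 and Egr2 were both higher in F592A in these groups.

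Of 29 measured other limb and connective tissue factors, 2 passed 1.5-fold in stromal cells, both higher in F592A. Meox1 was at 4.48 CPM in F592A and 1.78 CPM in WT (1.33), and Gli1, the Hedgehog effector, was at 2.64 and 1.14 CPM (1.21). Osr2 was lowest, at 18.2 and 26.3 CPM (-0.53), and in tenocytes it was at 9.59 and 15 CPM (-0.64, -0.81 to -0.48), past 1.5-fold, as were Meox1 (0.84) and Gli1 (0.62) upward. Among 10 E protein, Id protein and corepressor genes, Id4 alone passed it in stromal cells, at 5.52 and 3.15 CPM (0.81), and Id2 was at 47.3 and 35.8 CPM (0.40). Of 11 measured TGF-beta and GDF genes none passed, with Tgfb3 at 100.2 and 81.8 CPM (0.29) and Gdf5 at 2.68 and 3.48 CPM (-0.38).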

How the data were processed

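Per the file headers, the authors deposited whole-number UMI counts per gene and cell barcode from Cell Ranger 6.0.1. Seurat, the mm10 build and another Cell Ranger version, 2.1.1, are listed in the submitters' processing notes, and the sources used here do not settle which version was used. Cells with at least 500 genes, 1000 UMIs and at most 15% mitochondrial UMIs were kept, and doublets called by Scrublet in scanpy 1.11.5 were removed (220 in F592A, 342 in WT). Each cell was scored on 14 lineage marker lists as the mean log of 1 plus UMIs per 10000, scaled by the 50 highest cells. It was assigned at a scaled score of at least 0.35 with a second score at most 0.75 of the first, values set from the scores after the data were seen. The scaled scores put 281 F592A and 349 WT cells near the limit. Counts were summed per cell group and library and divided by the group's total (CPM). CPM intervals are exact Poisson, shares exact Clopper-Pearson, and log2 ratios exact conditional binomial, all at 95%. A count of 0 was given an upper limit of 3 counts.

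Named genes were the 5 members, the 2 highest and 2 lowest ratios per list, and the 3 genes most like each member. Genes named in the comparison of cells with and without a member, Bop1, and the promoters shown were chosen after values were seen. The members and lists were chosen with earlier results of these data known. The ratio step was tested on simulated counts. Python 3.11.15 and R 4.3.3 with edgeR 4.0.16 (TMM factors only) were used.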

Additional observations from a re-analysis of the deposited data

Results flagged for a closer look

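The Scx ratio of F592A over WT was 1.26 on the log2 scale in Pi16 Dpp4 adventitial cells and -0.28 in stromal cells of no subset, opposite directions under the same contrast. The difference between them was not tested, since each genotype has 1 library. The Egr2 ratio was 0.64 in Angptl7 Prg4 surface cells and -0.55 in cycling stromal cells, again in opposite directions, and this was not tested either. Among cells outside the comparisons, the 13 Schwann cells of the F592A library held 5 Egr2 UMIs, above the 3 that a count of 0 allows. Cells assigned to no lineage held 130 Scx UMIs in F592A and 150 in WT, at 23.2 and 31.9 CPM.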

How the results depend on the processing

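All 45 measured ratios stayed within their counting error with a looser cell filter, doublets kept, a stricter lineage score, no mitochondrial or ribosomal genes, or no shared barcodes. With TMM factors the stromal ratios were -0.0244 for Scx, 0.42 for Mkx and 0.35 for Egr1, and the tenocyte ratios -0.13 for Scx and 0.16 for Egr1. With median-of-ratios factors they were -0.0265, 0.42 and 0.35, and -0.13 and 0.16. With stromal subsets weighted equally, Scx was at -0.0503 and Egr1 at 0.21. With cells thinned to 2000 UMIs, stromal Scx was at -0.14, Mkx at 0.11, Egr1 at 0.32 and Six2 at -0.33, and tenocyte Scx at -0.12, Mkx at -0.15 and Egr1 at 0.16; thinning weights cells equally. Without cells holding 2 or more UMIs of Tnmd or Kera, Egr2 in surface cells turned to -0.37, and the cause was not tested. Over 392 recomputed ratios, 32 changed sign and 13 moved by over 1.5-fold. Genes past 1.5-fold numbered 1144 in stromal cells, against 4372 with no filter and 195 at 20 CPM or more, and 691, 3537 and 143 in tenocytes. No paired analysis was possible because each genotype has 1 library, so no library could be left out. Six2 and the small groups are limited by their few UMIs.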

Other observations

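Groups with under 50 cells in a library were described only. Gdf10 Hmcn2 fibroblasts numbered 112 in F592A and 17 in WT, and held Egr1 at 522 CPM in F592A and 392 CPM in WT. Their Scx was at 26.1 CPM from 63 UMIs in F592A and 7.92 CPM from 2 UMIs in WT, and no Six2 UMI was found in either library. Interferon stromal cells numbered 7 in F592A and 70 in WT. Their Scx was at 682 CPM from 143 UMIs in F592A and 89.6 CPM from 145 UMIs in WT. Among 19 cells of the F592A library with skeletal muscle markers, 45 Scx UMIs were found and no Mkx UMI.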
